A study of Bos taurus with 4 samples.

Results

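Collagens, laminins and the other proteins of basement membranes were followed in bovine blastocysts grown from cryopreserved morulae. The members were all probes of the EMBV3 array, a bovine embryo microarray, whose platform symbol is a collagen chain, a numbered laminin chain, or FN1, SPARC, NID1, NID2, HSPG2, VIM, LUM or DCN. This rule used names and no measured value, and gave 66 of 43794 probes, for 55 of 15229 genes with a symbol. The embryos were bovine morulae made in vitro, and every pool had been frozen and warmed. In the vitrified group (Vit, 4 pools) morulae were solidified without ice on a cryotop, a thin strip, in ethylene glycol, DMSO and sucrose. In the slow-frozen group (SF, 4 pools) they were cooled at 0.5 °C per min in 1.5 M glycerol. After warming they were cultured for 24 to 48 h, and expanded blastocysts were pooled, 7 per pool according to the labels. Only embryos that had expanded were pooled, so the freezing method and the choice of survivors cannot be told apart. The unfrozen control group was not analysed here.

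A basement membrane is a thin sheet of matrix under an epithelium. Its laminin network binds to cells, its type IV collagen network gives strength, and nidogens and the proteoglycan perlecan tie these networks together. Such sheets form early in mammalian embryos, and in the mouse the primitive endoderm, which corresponds to the hypoblast of cattle, is a main producer of laminin, type IV collagen and SPARC. Fibrillar collagens, fibronectin and small proteoglycans build the looser matrix beyond the sheet. Vimentin (VIM) is not a matrix protein but an intermediate filament inside cells, widely used as a mark of mesenchymal cells.

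Median raw intensity was 109 to 384 per pool, and 63.3% to 74.1% of all probes were above the 95th percentile of the negative controls of their pool, as were 39 to 50 of the 66 member probes. Vit 3 stood apart, being the highest of the 8 pools for 20.7% and the lowest for 20.2% of all probes. Replicates 1 and 2 of both groups carried Cy5 and replicates 3 and 4 Cy3, so an effect of dye and of these numbers cannot be told apart. Per the methods each freezing group had a slide of its own, so slide and group cannot be told apart either. Of markers listed for the cell types of the blastocyst, hypoblast genes were measured for 8 of 13 with a probe, inner cell mass genes for 12 of 14 and trophectoderm genes for 19 of 20. The defining hypoblast genes SOX17 and FOXA2 were not above the negative controls in enough pools to be measured, whereas GATA4, PDGFRA and HNF4A were above them in all 8 pools. Fibroblast or stromal markers were measured for 9 of 15 genes, with PRRX1, PDGFRB, FBN1, TCF21, TAGLN and FAP not measured. Of the measured ones ACTA2, TWIST2, THY1 and S100A4 were above the controls in all 8 pools. Cumulus or granulosa markers were measured for 11 of 16 genes, with FOXL2, AMH, AMHR2, HAS2 and LHCGR not measured. Here STAR, CYP19A1, INHBA and CD44 were above the controls in all 8 pools.

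A probe counted as measured where it was above the negative controls in at least 3 of the 4 pools of a group. By this rule 45 member probes, for 40 of the 55 genes, were measured, and 22 of these genes were above the controls in all 8 pools. The basement membrane components were broadly detected. Type IV collagen was measured for 5 of 6 chains, laminin for 6 of 8 chains, and the nidogens, perlecan and the multiplexins COL15A1 and COL18A1 for 5 of 5. Type IV collagen lacked COL4A4, and the laminins lacked LAMC3, each at 0 of 8 pools, and LAMA4, above the controls in 0 Vit and 2 SF pools. Among the other collagens the measured share was 4 of 5 anchoring and transmembrane chains, 6 of 9 fibrillar chains, 7 of 9 fibril-associated chains and 3 of 8 beaded filament and short-chain collagens. COL2A1, COL5A3, COL11A1, COL9A3, COL20A1, COL25A1, COL6A1, COL6A3, COL6A6, COL8A2, COL10A1 and decorin (DCN) were not measured.

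**Figure D1:**
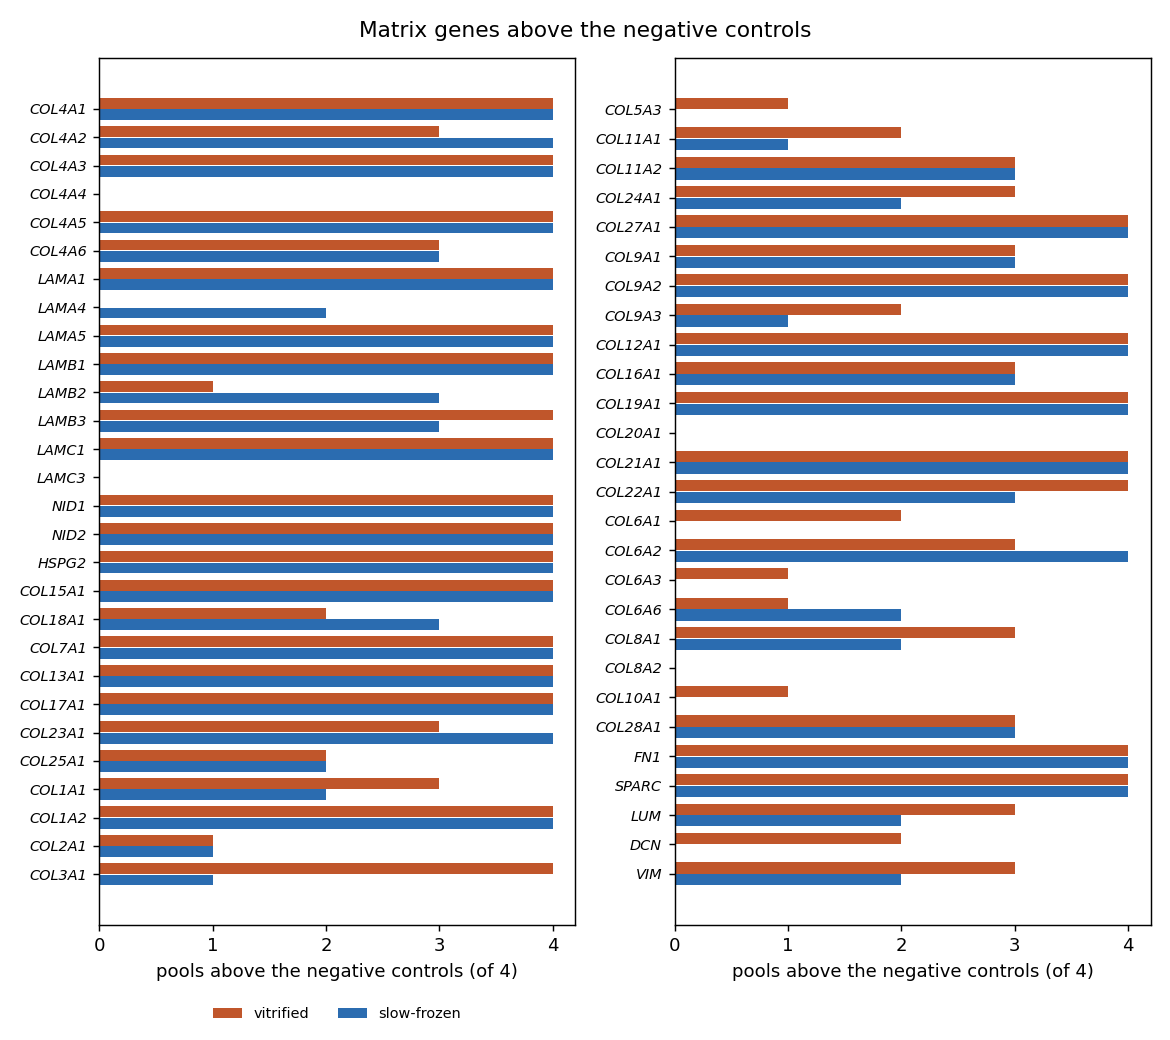
Number of vitrified (upper bar) and slow-frozen (lower bar) pools, of 4 each, in which the probe standing for each of the 55 genes was above the 95th percentile of the negative controls. Of the 19 type IV collagen, laminin and linker genes 11 reached 4 of 4 in both groups, whereas COL4A4, LAMC3, COL20A1 and COL8A2 have no bar.

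The comparison of Vit with SF pools asked whether the transcripts of these proteins in the blastocyst differed with the way the morula was preserved. Differences are log2 intensity, vitrified minus slow-frozen, from limma with dye as a term, and p-values were adjusted over all 30034 probes tested. Of the 40 measured genes 0 passed the adjustment, with adjusted p from 0.985 to 1.000 (limma, Benjamini-Hochberg), and over the whole array the percentage that passed was 0.00333%. An unadjusted p under 0.05 was reached by 1 of 40 genes, VIM, and by 2 of 45 probes (4.44%), against 4.83% of all probes tested and 2.45% for those higher in Vit, as VIM was. At the study's own limits, 2-fold or more with an unadjusted p under 0.05, 0 member probes were called, against 0.186% of all probes. The difference was above 0 for 20 genes (50%, against 51.4% of all probes tested) and below 0 for 20, and the median was -0.004 over the member genes and 0.006 over all probes tested.

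The differences of the 40 genes ran between -0.68 for NID2 and 0.76 for VIM, and 37 were under 1.5-fold. For 33 of the 40 genes the 95% confidence interval lay within 2-fold both ways. For the remaining genes a difference of 2-fold was within the interval, so these pools do not show that the groups were alike. In pooled embryos fewer cells of a type and less RNA per cell cannot be told apart, which holds for every value given here. The number of pools limits the precision.

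**Figure D2:**
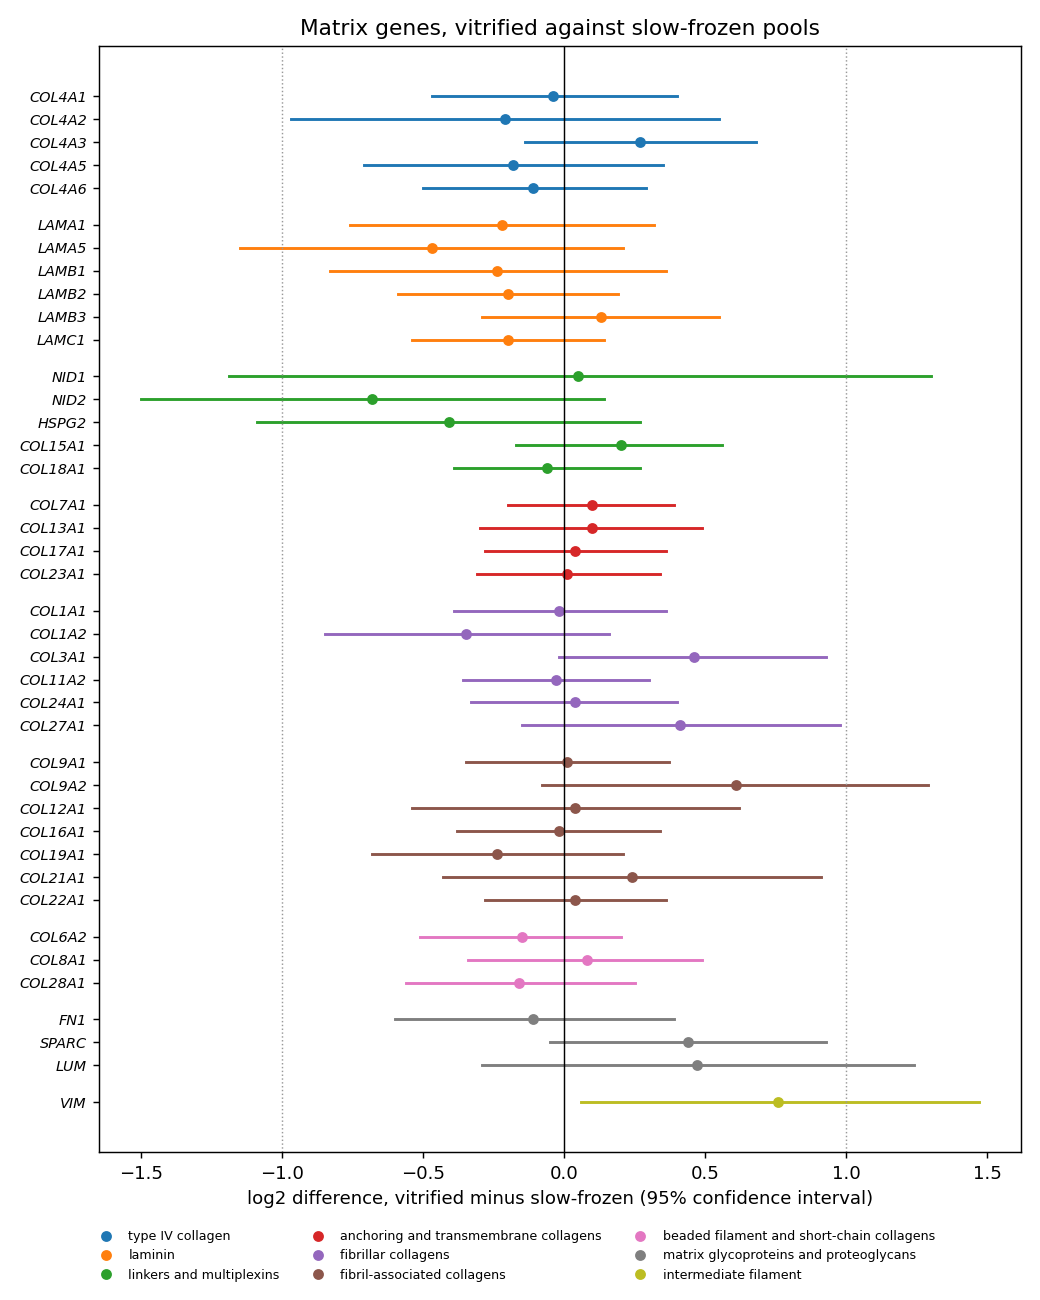
Difference in log2 intensity, vitrified minus slow-frozen, for the 40 measured genes, with 95% confidence intervals from limma (4 pools per group) and colours by class. Dotted lines mark 2-fold, and only the interval of VIM does not reach 0.

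The type IV collagen genes did not separate the groups. COL4A1 encodes a chain of the network found in nearly all basement membranes, and had 11.90, 11.00, 11.28 and 11.45 in Vit 1 to 4, against 11.45, 11.21, 11.50 and 11.64 in SF 1 to 4 (log2 normalised intensity, as for all pool values that follow). Both the highest and the lowest pool were vitrified, and the difference was -0.04 ± 0.20 (SE, n = 4 pools per group). COL4A2, its partner chain, had 8.37, 8.78, 6.91 and 8.57 in Vit pools, against 7.95, 8.52, 8.49 and 8.53 in SF pools. Vit 3 lay below all others, only 3 of 4 Vit pools were above the negative controls, and the difference of -0.21 ± 0.34 was 0.23 without Vit 3. The chains of the more specialised networks were COL4A3 at 0.27, COL4A6 at -0.11 and COL4A5 at -0.18, with -0.38 at a second COL4A5 probe. In all, 1 of 5 type IV chains had a difference above 0 and 4 below, with a median of -0.11.

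The chains of laminin-111, the laminin of the earliest basement membranes in the mouse, were all measured in all 8 pools. LAMA1, its alpha chain, had 9.78, 9.60, 10.69 and 9.84 in Vit pools, against 10.61, 10.11, 10.19 and 9.88 in SF pools (difference -0.22 ± 0.24). The highest pool was Vit 3, and the other Vit pools lay below every SF pool. LAMB1, its beta chain, had 9.65, 10.03, 10.19 and 10.17 in Vit pools, against 10.57, 9.80, 9.65 and 10.96 in SF pools (-0.24 ± 0.27). SF 1 and SF 4 lay above every Vit pool, and SF 2 and SF 3 lay within the range of the Vit pools.

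LAMC1, the gamma chain shared by most laminins, was read by 3 measured probes. At the brightest it had 10.91, 10.38, 10.78 and 10.90 in Vit pools, against 10.73, 10.71, 11.13 and 11.23 in SF pools, a difference of -0.20 ± 0.15. At the second, EMBV3_23221, it had 9.02, 9.01, 8.68 and 9.12 in Vit pools, against 9.23, 9.18, 9.23 and 9.60 in SF pools, a difference of -0.35 ± 0.16 (adjusted p = 1.000, limma). At this probe every Vit pool lay below every SF pool, the only measured member probe of 45 without overlap (2.22%, against 2.47% of all probes tested). The third probe gave -0.25 ± 0.21 with overlapping pools. All 3 LAMC1 probes thus had a difference below 0 and none passed the adjustment.

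LAMA5, the alpha chain of a laminin widespread in epithelia, had 9.48, 9.13, 7.71 and 9.29 in Vit pools, against 9.18, 9.58, 9.39 and 9.34 in SF pools (-0.47 ± 0.31). Vit 3 stood below all other pools, and the other Vit pools overlapped with the SF pools. LAMB2 had a difference of -0.20 and was above the controls in 1 Vit and 3 SF pools, and LAMB3, a chain of epithelial anchoring laminin, had 0.13. The median over the 6 measured laminin chains was -0.21, with 1 above and 5 below 0.

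The nidogens and perlecan, which link the networks, varied widely between pools. NID1 had 9.38, 10.54, 9.54 and 8.86 in Vit pools, against 8.18, 11.06, 10.25 and 8.62 in SF pools. The SF pools held both the highest and the lowest value, 2.88 log2 units apart, and the difference of 0.05 ± 0.56 had a 95% interval from -1.19 to 1.30. NID2 had 8.98, 9.25, 8.16 and 9.26 in Vit pools, against 10.20, 8.98, 8.84 and 10.37 in SF pools. SF 1 and SF 4 were above all Vit pools and the other SF pools were among them, with a difference of -0.68 ± 0.37 (adjusted p = 1.000, limma), a ratio of 1.61-fold. Without SF 4 the difference was -0.34. These 2 SF pools were the lowest of all 8 for NID1 and the highest for NID2.

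HSPG2, which encodes perlecan, had 11.34, 10.59, 10.43 and 9.28 in Vit pools, against 11.48, 11.40, 9.57 and 10.82 in SF pools. The values followed the dye: the Cy5 pools, replicates 1 and 2, were higher than the Cy3 pools by 1.18 on average, and the difference between groups was -0.48 within Cy5, -0.34 within Cy3 and -0.41 ± 0.31 over both. COL18A1, the multiplexin that yields endostatin, was above the controls in 2 Vit and 3 SF pools, with 7.53, 7.22, 7.29 and 7.28 in Vit pools, against 7.44, 7.56, 7.49 and 7.06 in SF pools (-0.06 ± 0.15). The related COL15A1 had 0.20 ± 0.17. The pools of the groups overlapped for both multiplexins.

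As a class, 12 of the 16 measured basement membrane genes (type IV collagens, laminins and linkers) had a difference below 0 (75%), against 48.6% of all probes tested, and their median was -0.19. Of the 24 other member genes 8 were below 0 (33.3%), with a median of 0.04. This split was noticed after the values were seen, its genes share pools and pathways, and it was not tested. The count below 0 was 11 to 13 of 16 when any 1 pool was left out. Among the genes above the controls in all 8 pools it was 8 of 11. LAMB2 and COL18A1 entered the test through the SF pools alone. Of the other members VIM, COL3A1, LUM, COL1A1, COL24A1 and COL8A1 entered through the Vit pools alone. The filter thus favoured the sign that each of these genes had, except COL1A1, which was at -0.02. Among trophectoderm markers 17 of 19 also had a difference below 0, 8 with an unadjusted p under 0.05, against 2.38% of all probes that were lower at this threshold, and 0 past the adjustment, and their mean level per pool was 11.14 to 11.49 in Vit pools, against 11.58 to 11.93 in SF pools, without overlap. Hypoblast markers lay the other way in 6 of 8 genes, against 51.4% of all probes above 0. Their mean level was 8.97 to 9.19 in Vit pools, against 8.41 to 9.11 in SF pools, with overlap. An unadjusted p under 0.05 was reached by 1 higher and 0 lower of them, against 2.45% and 2.38% of all probes. Inner cell mass markers were above 0 for 7 genes and below for 5. Of these 3 higher and 1 lower had an unadjusted p under 0.05, against 2.45% and 2.38% of all probes, and 0 passed the adjustment. Their mean level was 9.92 to 10.19 in Vit pools, against 9.79 to 10.03 in SF pools. The cell type lists were chosen with earlier results of these data known. The trophectoderm list holds genes that the paper reports as downregulated after vitrification against unfrozen controls. The counts called thus describe these lists and are no test of a cell type. The part of these cell types in the matrix values was not tested.

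**Figure D3:**
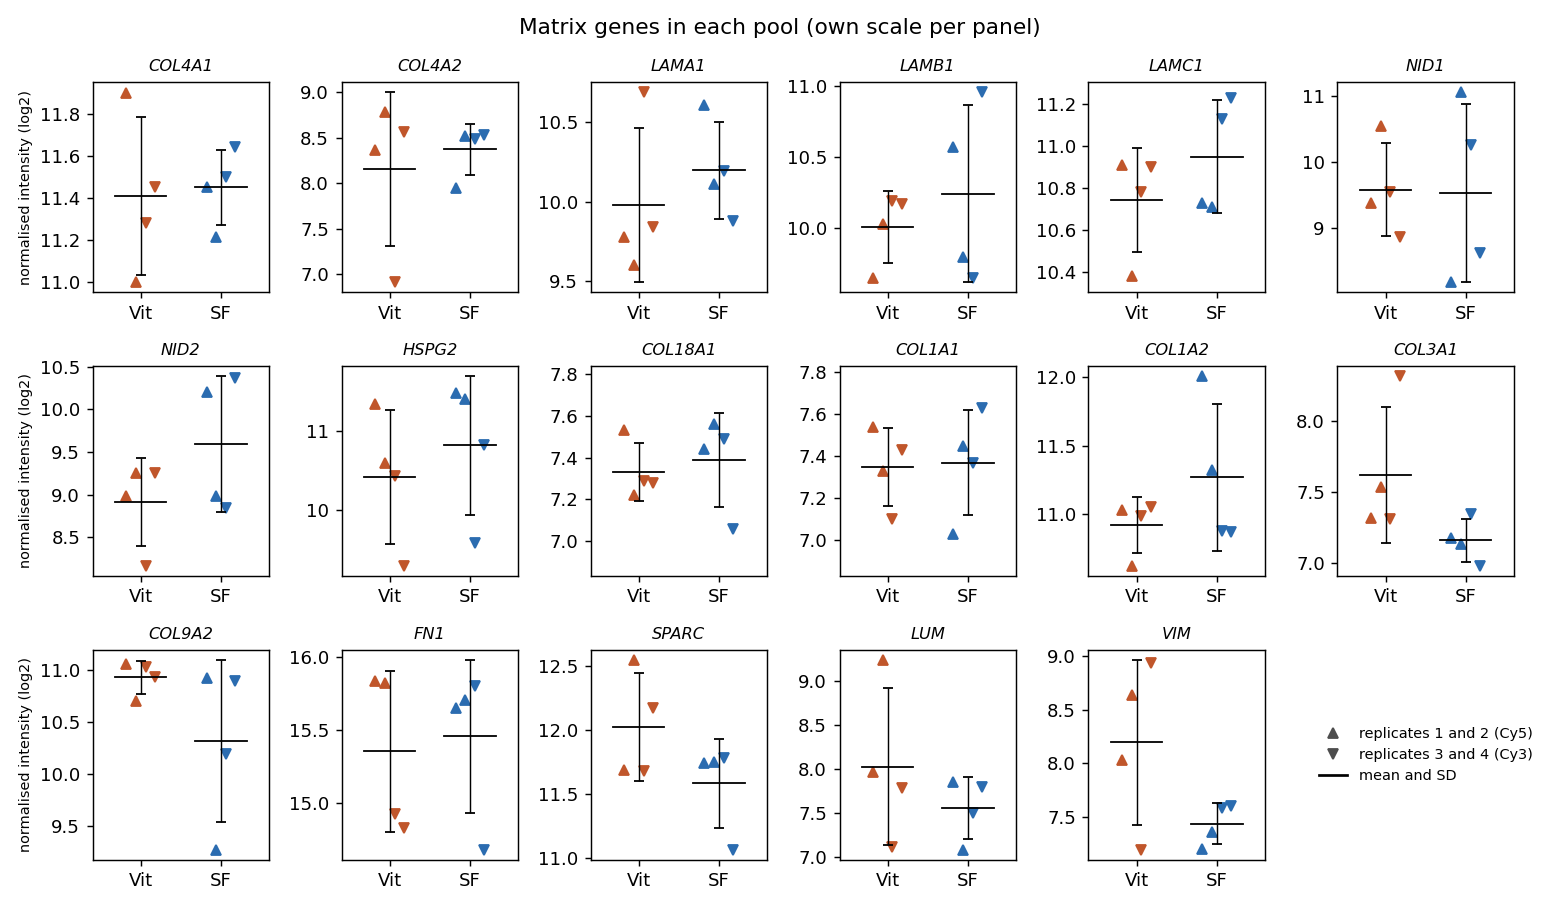
Normalised log2 intensity of the 17 named genes in each pool, vitrified (left of each panel) and slow-frozen (right), with upward triangles for Cy5 and downward triangles for Cy3 pools. Horizontal lines are means and bars SD (n = 4), each panel has its own scale, and the pools of the groups overlap for every gene shown.

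The fibrillar collagens form the banded fibres of connective tissue. COL1A2, the second chain of type I collagen, had 11.03, 10.62, 10.99 and 11.05 in Vit pools, against 12.01, 11.32, 10.88 and 10.87 in SF pools (-0.35 ± 0.23). SF 1 and SF 2 were the highest pools, so the difference was -0.84 within Cy5 and 0.14 within Cy3. COL1A1, which encodes the other chain of the same protein, had 7.54, 7.33, 7.10 and 7.43 in Vit pools, against 7.03, 7.45, 7.37 and 7.63 in SF pools (-0.02 ± 0.17). It was above the controls in 3 Vit and 2 SF pools, and the pattern of COL1A2 was not seen in it. COL3A1, the chain of type III collagen, had 7.32, 7.54, 7.31 and 8.32 in Vit pools, against 7.18, 7.14, 7.35 and 6.98 in SF pools (0.46 ± 0.21, adjusted p = 1.000, limma). It was above the controls in 4 Vit pools and 1 SF pool, Vit 4 was the highest, and the 95% interval ran from -0.02 to 0.93. The difference was 0.22 without Vit 4, and the probe entered the test through the Vit pools alone. COL27A1 had 0.41 ± 0.25 and the others of this class were within 0.04 of 0.

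Fibril-associated collagens sit on the surface of fibres. COL9A2, a chain of type IX collagen of cartilage, had 11.06, 10.71, 11.03 and 10.94 in Vit pools, against 10.93, 9.27, 10.20 and 10.90 in SF pools. The 4 Vit pools were close together and SF 1 and SF 4 lay among them, while SF 2 and SF 3 were lower, and the difference was 0.61 ± 0.31 (1.52-fold, 95% interval from -0.08 to 1.29, adjusted p = 1.000, limma). It was 0.24 without SF 2 and 0.91 without SF 1. The partner chain COL9A1 was read by 3 measured probes, at 0.01, 0.18 and -0.01. In that order they were above the controls in 3 Vit and 3 SF, 4 Vit and 1 SF, and 3 Vit and 1 SF pools. At such low signal they cannot show whether COL9A1 followed COL9A2. The third chain, COL9A3, was not measured. COL12A1, COL16A1 and COL22A1 were within 0.04 of 0, COL19A1 was at -0.24 and COL21A1 at 0.24.

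Anchoring and transmembrane collagens fix epithelia to the sheet or sit in the cell membrane. COL7A1, the anchoring fibril collagen, and COL17A1, a hemidesmosome protein, had differences of 0.10 ± 0.13 and 0.04 ± 0.14, and their 8 pools spanned 0.31 and 0.38. These were the narrowest spans among the 40 genes. Both lay close to the negative controls in some pools, so a narrow span here says little about the transcripts. COL7A1 had a raw intensity of 341 in Vit 3, against a control bound of 332, and COL17A1 had 111 in SF 2, against 104.4. COL13A1 and COL23A1, both transmembrane collagens, had 0.10 and 0.01. Of the beaded filament and short-chain collagens COL6A2 had -0.15, COL28A1 -0.16 and COL8A1 0.08.

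Fibronectin (FN1), a glycoprotein that binds integrins and collagen, had 15.84, 15.82, 14.93 and 14.83 in Vit pools, against 15.65, 15.71, 15.80 and 14.68 in SF pools (-0.11 ± 0.22). Its raw intensity was 28573 to 61275 in Vit pools, against 23914 to 60714 in SF pools, under the scanner ceiling of 65535. SPARC, a matrix glycoprotein that binds collagen, had 11.69, 12.55, 11.68 and 12.17 in Vit pools, against 11.74, 11.75, 11.78 and 11.06 in SF pools. Vit 2 and Vit 4 were above every SF pool, SF 4 was below all others, and the difference was 0.44 ± 0.22 (1.36-fold, adjusted p = 1.000, limma). Lumican (LUM), a small proteoglycan of collagen fibres, had 7.97, 9.24, 7.12 and 7.78 in Vit pools, against 7.85, 7.08, 7.50 and 7.79 in SF pools. It was above the controls in 3 Vit and 2 SF pools, Vit 2 was the highest of all, and the difference of 0.47 ± 0.35 was 0.09 without that pool. DCN, which lies beside LUM in the genome, was above the controls in 2 Vit and 0 SF pools and was not tested.

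VIM had the largest difference of the 40 genes. It had 8.03, 8.64, 7.19 and 8.93 in Vit pools, against 7.20, 7.36, 7.58 and 7.60 in SF pools. Vit 1, 2 and 4 lay above every SF pool and Vit 3 just below the lowest, and the probe was above the controls in 3 Vit and 2 SF pools, so it entered the test through the Vit pools alone. The difference was 0.76 ± 0.32 (1.7-fold higher, 95% interval from 0.06 to 1.47, adjusted p = 0.985, limma), 1.06 within Cy5 and 0.47 within Cy3. It was 0.48 without Vit 4, 0.58 without Vit 2 and 1.17 without Vit 3 (adjusted p of 0.922, 1.000 and 0.541, limma), and it did not pass the adjustment in any setting tried, where adjusted p ran from 0.412 to 1. The unadjusted call was lost without any 1 of Vit 1, Vit 2, Vit 4, SF 1 and SF 2, and with median centring. Stromal markers had a mean level of 8.81 to 9.04 in Vit pools, against 8.86 to 8.92 in SF pools. This mean joins 7 genes with a difference above 0 and 2 below, against 51.4% of all probes above 0. An unadjusted p under 0.05 was reached by 0 higher and 1 lower of them, against 2.45% and 2.38% of all probes. The part of stromal cells in the VIM values was not tested.

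The matrix genes varied between pools of the same group more than most probes of the array. Over the 22 genes above the controls in all 8 pools, the residual SD between pools, after group and dye, had a median of 0.42 (log2), against 0.26 over the 20161 probes of the array above the controls in all 8 pools. Of these 22 genes 18 were above the median of those probes and 9 (40.9%) above their 90th percentile of 0.45. The 9 were NID1 at 1.14, NID2 at 0.73, HSPG2 and COL9A2 at 0.59, LAMA5 and COL21A1 at 0.58, LAMB1 at 0.50, COL12A1 at 0.48 and COL27A1 at 0.46. The residual SD of NID1 was larger than that of 99.9% of these probes. LAMC1 at 0.19, COL17A1 at 0.16 and COL7A1 at 0.12 had the smallest values, and COL17A1 and COL7A1 lay close to the negative controls in some pools. The count above the 90th percentile was 6 without SF 4 and 8 to 11 in the other settings tried. This is a description of these pools, which was added after the values were seen, and levels were not matched.

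**Figure D4:**
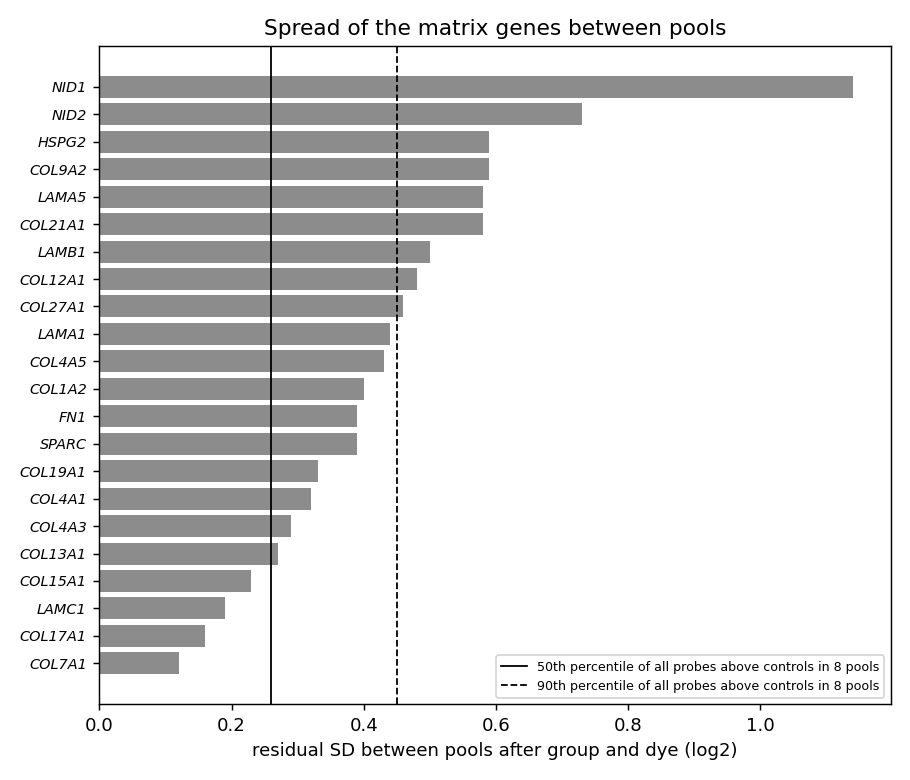
Residual SD of log2 intensity between pools, after group and dye, for the 22 genes above the negative controls in all 8 pools. The solid and dashed lines are the 50th and 90th percentiles, 0.26 and 0.45, of the 20161 probes detected likewise, and 9 genes, led by NID1 and NID2, lie beyond the dashed line.

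No pool was high or low for the whole set. Vit 3 was the highest pool for 8 and the lowest for 7 of the 40 genes, Vit 2 the highest for 7 and the lowest for 8, and SF 4 the highest for 8 and the lowest for 5. SF 3 was the lowest for 1 gene. The median deviation of the 40 genes from their means was between -0.13 in SF 2 and 0.16 in SF 4, against -0.02 and 0.00 over all probes in those pools. Dye went with 6 of the 40 genes at an unadjusted p under 0.05, against 7.29% of all probes tested. HSPG2 at 1.18 and FN1 at 0.69 were higher in Cy5 pools, and COL19A1 at -0.85, COL15A1 at -0.61, COL23A1 at -0.43 and COL9A1 at -0.41 were lower.

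**Figure D5:**
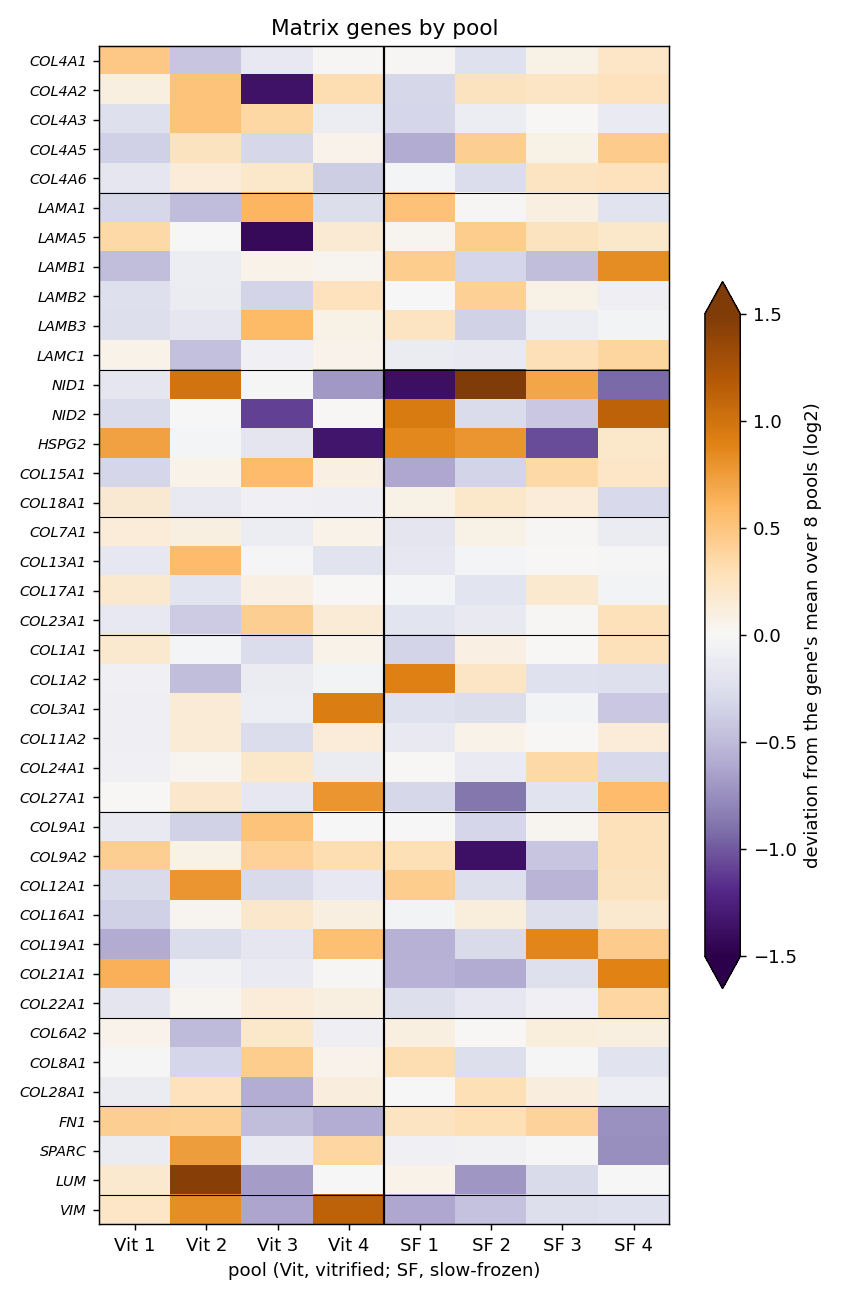
Deviation of each of the 40 measured genes from its own mean over the 8 pools (log2, colour), vitrified pools left of the vertical line and slow-frozen pools right of it, with horizontal lines between classes. Strong colours sit in single pools, such as NID1 in SF 1 and SF 2, HSPG2 in Vit 4 and LAMA5 in Vit 3. No class of several genes changes colour as a whole at the vertical line. VIM, a class of its own, is above its mean in Vit 1, Vit 2 and Vit 4 and below it in Vit 3 and every SF pool.

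Several of the members lie next to each other in the genome, and some such pairs encode chains of 1 protein. COL4A1 and COL4A2 had -0.04 and -0.21, and COL4A6 and COL4A5 had -0.11 and -0.18. The neighbouring COL19A1 and COL9A1 had -0.24 and 0.01. Gene order was taken from the ARS-UCD2.0 annotation.

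Genes that make, bind or cut the matrix also had 0 calls past the adjustment. Of the enzymes and chaperones of collagen synthesis and crosslinking, 23 of 32 with a probe were measured, 10 with a difference above 0 and 13 below (median -0.02), and an unadjusted p under 0.05 was reached by 1 higher and 1 lower, against 2.45% and 2.38% of all probes tested, so few calls say nothing about the list. P4HB, a subunit of the prolyl hydroxylase that stabilises the collagen helix, averaged 11.97 in Vit pools and 12.47 in SF pools (-0.50 ± 0.16, adjusted p = 0.903, limma). SERPINH1, the collagen chaperone of the endoplasmic reticulum, averaged 7.72 in Vit pools and 7.35 in SF pools (0.37 ± 0.14, adjusted p = 0.942, limma), and all 4 Vit pools lay above the SF pools, as for 1.48% of all probes. These genes act at early steps of the same pathway and had differences of opposite sign.

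Of the matrix receptors 22 of 29 were measured, 8 above and 14 below 0 (median -0.11), with an unadjusted p under 0.05 for 0 higher and 4 lower, against 2.38% of all probes that were lower at this threshold. RPSA, a ribosomal protein that also serves as a laminin receptor, averaged 15.18 in Vit pools and 15.67 in SF pools (-0.49 ± 0.15, adjusted p = 0.868, limma), without overlap, as for 0.982% of all probes that were lower in every Vit pool. Its other probes gave -0.22 and -0.28. CD151, a tetraspanin that associates with laminin-binding integrins, averaged 13.09 in Vit pools and 13.66 in SF pools (-0.56 ± 0.22, adjusted p = 0.966, limma). The other receptors with an unadjusted p under 0.05 were ITGA5 and ITGB5, integrin chains for fibronectin and vitronectin, which are named because of their values. The receptor list too was chosen with earlier results of these data known.

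Of the matrix proteases and their inhibitors 18 of 27 were measured, 9 above and 9 below 0 (median -0.04), and 0 had an unadjusted p under 0.05. MMP2, a gelatinase that cuts type IV collagen, averaged 7.96 in Vit pools and 8.22 in SF pools (-0.26 ± 0.15), and MMP1, an interstitial collagenase, averaged 7.47 in Vit pools and 7.24 in SF pools (0.23 ± 0.14), with adjusted p = 1.000 for both (limma). MMP1 was above the controls in 4 Vit pools and 1 SF pool, so it entered the test through the Vit pools alone and its SF level lay mostly at background. Of other basement membrane and matrix proteins 17 of 31 were measured, 9 above and 8 below 0 (median 0.01), with 1 higher and 1 lower at an unadjusted p under 0.05, again against 2.45% and 2.38% of all probes. Agrin (AGRN), a heparan sulphate proteoglycan of basement membranes, averaged 8.82 in Vit pools and 9.41 in SF pools (-0.59 ± 0.24, adjusted p = 0.980, limma). Fibromodulin (FMOD), a small proteoglycan of collagen fibres, was above the controls in 4 Vit and 0 SF pools. It averaged 7.69 in Vit pools and 7.19 in SF pools, a difference of 0.51 ± 0.16 and a ratio of 1.42-fold (adjusted p = 0.898, limma). The SF mean lay at background and equals its bound, the higher of the dimmest detected signal and the probe's own. The ratio is thus a point estimate and not a lower limit. It entered the test through its Vit pools alone, so a difference of this sign was favoured by the filter.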

How the data were processed

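RNA of each pool of blastocysts was amplified, labelled and hybridised against a control pool, with a slide for each freezing method. Each of the 4 deposited files pairs 1 Vit channel with 1 SF channel, as the authors set them together, and holds median spot and local background intensity per channel from Array-Pro, not background-subtracted per the file headers. A deposited value table holds the authors' log2 ratios. It was matched by the Cy5 to Cy3 ratio recomputed with subtraction and loess (r = 1.0000 in each file, column medians from -0.00124 to 0.00192), which settled its scale, centring and direction, and it served as an alternative. The methods describe replicates as production cycles on different dates that each supplied a tube of both treatments, so Vit and SF pools share cycles. Neither labels nor methods tie the replicate numbers to cycles, so the 8 pools entered the test as independent samples, and the block by number is an alternative.

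Of 45220 spots per file 43794 were probes. Background was corrected with normexp (offset 50), then loess was applied within each file, with control spots at no weight, and quantile normalisation over the probes of the 8 channels. Probes marked ignored (58) were left out, and 30034 were kept that exceeded the 95th percentile of 153 negative control spots in at least 3 of the 4 pools of a group. The groups were compared by a two-sided test in limma 3.58.1 under R 4.3.3 (lmFit, eBayes) with dye as an additive term and Benjamini-Hochberg adjustment over all kept probes. Depth on an array has no count, and precision is limited by the number of pools. The fit was tested on simulated data. The platform table gave 1 symbol for 21790 probes and none for 22004, and 1524 were updated from the ARS-UCD2.0 gene table for matching lists. A gene was represented by its brightest kept probe.

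Pool values are given for member genes with an unadjusted p under 0.05 and for a set list of type IV collagen, laminin, linker, type I, III and IX collagen and glycoprotein genes. LAMA5 is added after its values were seen. Of each of the 4 lists of matrix-related pathways the 2 genes with the smallest p are named, and the receptors ITGA5 and ITGB5 are added after their values were seen. Cell type markers are given by counts and mean levels, with single genes named only for whether they were detected. The members, lists and tests were chosen with earlier results of these data known. Alternatives were plain background subtraction, no loess, median centring, no filter or a stricter one, no dye term, a replicate block, the file as a random block, the value table, the mean over a gene's probes, and leaving out each pool.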

Additional observations from a re-analysis of the deposited data

Results flagged for a closer look

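Single pools stood far from the other 3 of their group for 5 of 80 gene and group combinations looked at, and chance alone gives about 1 in 20. COL12A1, a fibril-associated collagen, was at 10.81 in Vit 2, against 9.73 to 9.87 in the other Vit pools. COL1A2 was at 10.62 in Vit 2, against 10.99 to 11.05 in the other Vit pools. FN1 was at 14.68 in SF 4, against 15.65 to 15.80 in the other SF pools, and SPARC was at 11.06 in the same pool, against 11.74 to 11.78. COL4A2 was at 7.95 in SF 1, against 8.49 to 8.53 in the other SF pools. Without SF 4 the difference between Vit and SF was 0.28 for SPARC and -0.28 for FN1.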

How the results depend on the processing

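The count of member genes past the adjustment was 0 in every alternative run, and the median difference over the member genes stayed between -0.05 and 0.04. The count with an unadjusted p under 0.05, 1 as reported, was 0 with median centring and with the filter for all 8 pools, which drops VIM, 3 with the replicate block, 3 with the file as a random block and 4 with the deposited value table, and 0 to 5 when any 1 pool was left out. It was 0 without Vit 2, 2 without Vit 1, 4 without Vit 3, 5 without SF 3 and 4 without SF 4. Over all probes this share was 9.05% with the file as a random block and 2.91% without Vit 2. Of the named genes other than VIM, an unadjusted p under 0.05 was reached in at least 1 alternative by COL3A1, COL9A2, NID2, LUM, LAMA1, LAMB1, LAMC1, HSPG2 and SPARC. Member genes outside the named set make up the rest of these counts, and the cause was not tested. Same-numbered pools deviated together by r of -0.03 to 0.16 over 4 pairs, and pools of unlike number by -0.31 to 0.14. For 2 Vit pools the closest SF pool had the same number. So few pairs cannot decide whether the numbers pair the samples, and they were not taken to do so. With the block COL9A2 (0.61) and NID2 (-0.68) had unadjusted p-values under 0.05, with adjusted p of 0.943 and 0.907 (limma). Among the named genes, signal over background limits COL1A1, COL3A1, COL4A2, COL18A1, LUM and VIM, which were above the negative controls in some pools only. Of all 40 measured member genes 22 were above them in all 8 pools.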
